A study of Mus musculus with 26 samples.

Results

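Mouse lines that lack beta- or delta-sarcoglycan were compared with lines that lack a sarcoglycan grouped here as a striated muscle subunit. The first arm, called the beta/delta arm here, held the lines labelled sgcb, sgcb2 and sgcd, and its members were all 6 RNA samples of these groups. The other arm, called the sgca arm, held the 4 samples of sgca and of 1 further sarcoglycan-deficient line, whose own results are not reported here. Together these were 10 of the 26 RNA samples of a series on mouse models of muscular dystrophy. The wild type strains bl6 and bl10 (4 samples) served as the zero point for the values of single samples. The remaining groups entered the fit only. They were mdx and mdx3cv (dystrophin-deficient), dysf and sjl (dysferlin-deficient) and sspn, which lacks sarcospan. The last was hDMD, into which human DMD was introduced. That sgcb2 is also a beta-sarcoglycan line was inferred from how it is named. Tissue, age, sex, alleles, dyes and background strains are not given in the sources used here. Strain and missing protein cannot be told apart. Nothing states that both samples of a line came from separate mice. The p-values therefore reflect no more than the spread among these samples, which may be technical.

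Sarcoglycans are membrane proteins that sit beside dystroglycan and sarcospan and help to anchor dystrophin to the surface of the muscle fibre. Loss of a single subunit usually destabilises the others, and the fibres then degenerate and regenerate while macrophages and connective tissue invade the muscle. Alpha-sarcoglycan is a subunit of striated muscle. Beta- and delta-sarcoglycan are also built, together with epsilon-sarcoglycan, into a complex of smooth muscle, including that of blood vessels. The question that the contrast addresses is whether the arms differed in their expression pattern, in vessels or elsewhere. The beta/delta arm lost the shared subunits, and the sgca arm lost those grouped here as striated muscle subunits.

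The 26 arrays had 2 channels each and no common reference. Each sample was on 2 arrays, once per channel, and the arrays closed into 1 loop. Of the 26 arrays, 16 held a sample of either arm and only 1 held a sample of both, sgcd sample 1 against sgca sample 2, so most of the comparison ran through other groups. The deposited values were natural-log ratios, converted to log2. All signs rest on reading a ratio as channel 1 over channel 2, which is likely and not certain. The check used 9 combinations of a line and the gene of the protein in which it is deficient. Alleles are not given, so it is not known in which of these lines the RNA should be lower. Under this reading the gene was lower in 7, 3 of them with a limma unadjusted p under 0.05. It was higher in 2, neither with such a p. The clearest was Sgca in sgca, at -4.33 against wild type (limma unadjusted p = 2.13e-08). Rows of spots were averaged into 6540 genes. The median residual SD was 0.49, and the median standard error (SE) of the difference between the arms was 0.31, both on the log2 scale. Values of single samples are log2 differences from the mean of bl6 and bl10, with a median SE between 0.43 and 0.66 depending on the sample. Ratios do not give levels, so the presence of a cell type could not be read from them. In whole tissue, fewer cells of a type and less RNA per cell cannot be told apart.

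Sgca itself was the only gene that passed the test between the arms. It was 8.22-fold higher in the beta/delta arm than in the sgca arm (log2 3.04 ± 0.41, SE, n = 6 and 4 samples; limma with Benjamini-Hochberg adjustment, adjusted p = 0.00192). This is the gene that 1 line of the sgca arm lacks, so it bears on the labels and not on the response to the loss. No other of the 6540 genes passed in either direction, and the next smallest adjusted p was 0.977 by limma. The background was thus 0.0153% of genes called higher and 0% called lower. At an unadjusted p under 0.05 there were 225 genes (3.44%), 140 higher (2.14%) and 85 lower (1.3%). This is less than the share of 0.05 that would be reached if no gene differed, so these genes are no surplus. The differences were small across the array: their median was 0.03 and their SD 0.35 on the log2 scale, and 78 genes differed by more than 2-fold. For 4377 genes (66.9%) the whole 95% interval of the difference lay within 1 log2 unit of 0, and the median half-width of that interval was 0.64. A difference of 2-fold or more between the means of these lines thus lay outside the interval of these genes, and was not excluded for the rest. Lines were fixed terms of the fit. The SE, p-values and intervals therefore hold the spread among samples and arrays and not that between lines, and apply to these lines only.

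The count at the adjusted threshold depended on single samples. It was 0 without sgcd sample 1, 0 without sample 1 of the other line, 2 without sample 2 of the other line and 8 without sgca sample 2. Sgca had a limma adjusted p of 0.0509 in the first of these fits and 0.212 in the second. The count was also 0 when the line sgcb was left out of the contrast, where Sgca was at 2.61 with a limma adjusted p of 0.0898. The 225 genes at an unadjusted p under 0.05 became 56 without dysf sample 1, 59 without sample 1 of the other line, 78 without sgcb sample 1, 94 without sgca sample 1, 98 without mdx sample 2, 111 without sgcb2 sample 2, 126 without sgcd sample 2, 143 without sgcb2 sample 1 and 149 without sspn sample 1. They became 376 without sgcb sample 2, 478 without sample 2 of the other line, 774 without sgcd sample 1 and 796 without sgca sample 2.

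**Figure D1:**
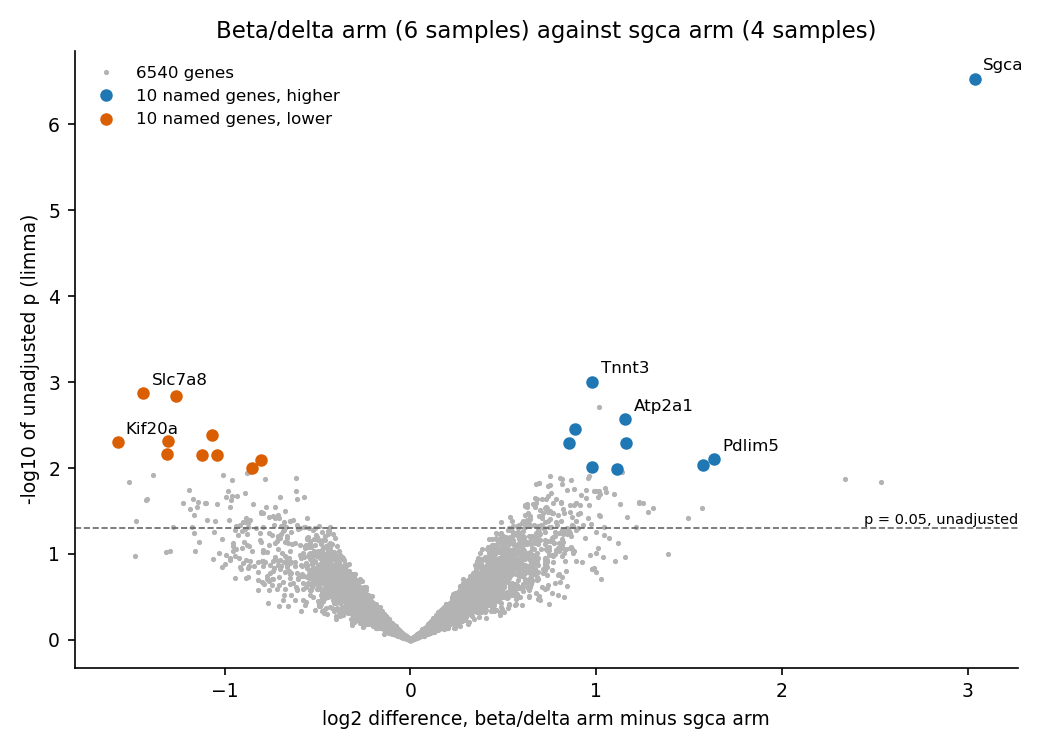
Each point is 1 of 6540 genes, with the log2 difference between the beta/delta arm (6 samples) and the sgca arm (4 samples) on the x axis and −log10 of limma's unadjusted p on the y axis. Sgca stands alone at 3.04, while the other 19 coloured genes, named by rank of p, merge with the cloud and have an adjusted p of 0.977.

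The genes of the sarcoglycan and dystrophin complex were examined sample by sample. Sgca, which encodes alpha-sarcoglycan, was at -4.31 and -4.88 in the sgca samples and at -1.005 and -0.61 in the other samples of that arm. In the beta/delta arm it was at 1.87 and 0.95 in sgcb, 0.25 and -0.49 in sgcb2, and -0.49 and 0.92 in sgcd. The arms did not overlap. On the 1 array that joined them directly, Sgca was 5.27 higher in sgcd sample 1 than in sgca sample 2. Against the sgca arm the difference was 3.89 in sgcb, 2.44 in sgcb2 and 2.78 in sgcd, and only that of sgcb passed the test (limma adjusted p = 0.00319, against 0.394 and 0.165).

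Sgcb, the gene of beta-sarcoglycan, was at 0.30 and -2.91 in the samples labelled sgcb and at -0.59 and -1.04 in those labelled sgcb2. It was at 0.32 and 1.43 in sgcd, 0.02 and 0.11 in sgca, and 0.09 and 0.70 in the other samples of the sgca arm. By these fitted values the low samples were sgcb sample 2 and both sgcb2 samples, while sgcb sample 1 lay among samples of other lines. On both of its own arrays, however, Sgcb was lower in sgcb sample 1 than in its partner. The log2 ratio was 0.79 for dysf sample 1 over sgcb sample 1, and -1.07 for sgcb sample 1 over sgcd sample 2. Between the arms Sgcb differed by -0.92 ± 0.43 (limma unadjusted p = 0.0465), made up of -1.57 in sgcb, -1.34 in sgcb2 and 0.16 in sgcd. Sgcd, the gene of delta-sarcoglycan, was at -1.30 and 0.73 in the samples labelled sgcd. It was lower in the sgca samples, at -1.34 and -1.06, than in sgcb, at 1.16 and 0.67, with sgcb2 at 0.71 and -0.82 and the other samples of the sgca arm at -0.51 and 0.03. Both sgcb2 samples thus lay below the 6 samples of the other lines of both arms for Sgcb. The fitted values of Sgcd did not set the sgcd samples apart, though on single arrays it was slightly lower in the sgcd sample each time. The log2 ratios were 0.37 for sgcb sample 1 over sgcd sample 2 and 0.54 for sgcb2 sample 2 over sgcd sample 1. They were -0.05 for sgcd sample 2 over sgcb2 sample 1 and -0.16 for sgcd sample 1 over sgca sample 2. The arms overlapped for both genes. The position of the spots relative to the deleted parts is not given in the sources used here, and these values therefore do not check the labels.

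The other genes of the complex lay mostly above 0 without passing the test. Of 24 measured members, 18 were above 0 and the median difference was 0.41, beside 0.03 for all genes. Of all 6540 genes, 3544 (54.2%) were above 0, a share to set beside each such count below. At an unadjusted p under 0.05 there were 5 higher, Sgca, Cav3, Sspn, Sntb2 and Plec, and 1 lower, Sgcb. Of all genes, 2.14% were higher and 1.3% lower at that level. Cav3, the caveolin of muscle fibres, differed by 0.81 ± 0.34, and ranged from -0.27 to 1.47 in the beta/delta arm (median 0.20) and from -0.93 to 0.04 in the sgca arm. Sspn, the sarcospan gene, differed by 0.66 ± 0.28, at 1.45 and 1.04 in sgcb but at 0.55 to -0.51 in the other beta/delta samples, against -1.30, -0.34, -0.34 and 0.65 in the sgca arm. Sgce, which encodes epsilon-sarcoglycan of the smooth muscle complex, differed by 0.49 ± 0.26 (95% interval -0.05 to 1.03). Dmd, the dystrophin gene, differed by 0.02 ± 0.26 (95% interval -0.53 to 0.57) and Utrn, the gene of the dystrophin relative utrophin, by 0.06 ± 0.34. Nos1, the neuronal nitric oxide synthase that binds the complex, was at 0.08 ± 0.31. The values of all these genes overlapped between the arms. The median of the list stayed above 0 without each of the 26 samples, from 0.06 without sgcb sample 1 to 0.43.

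**Figure D2:**
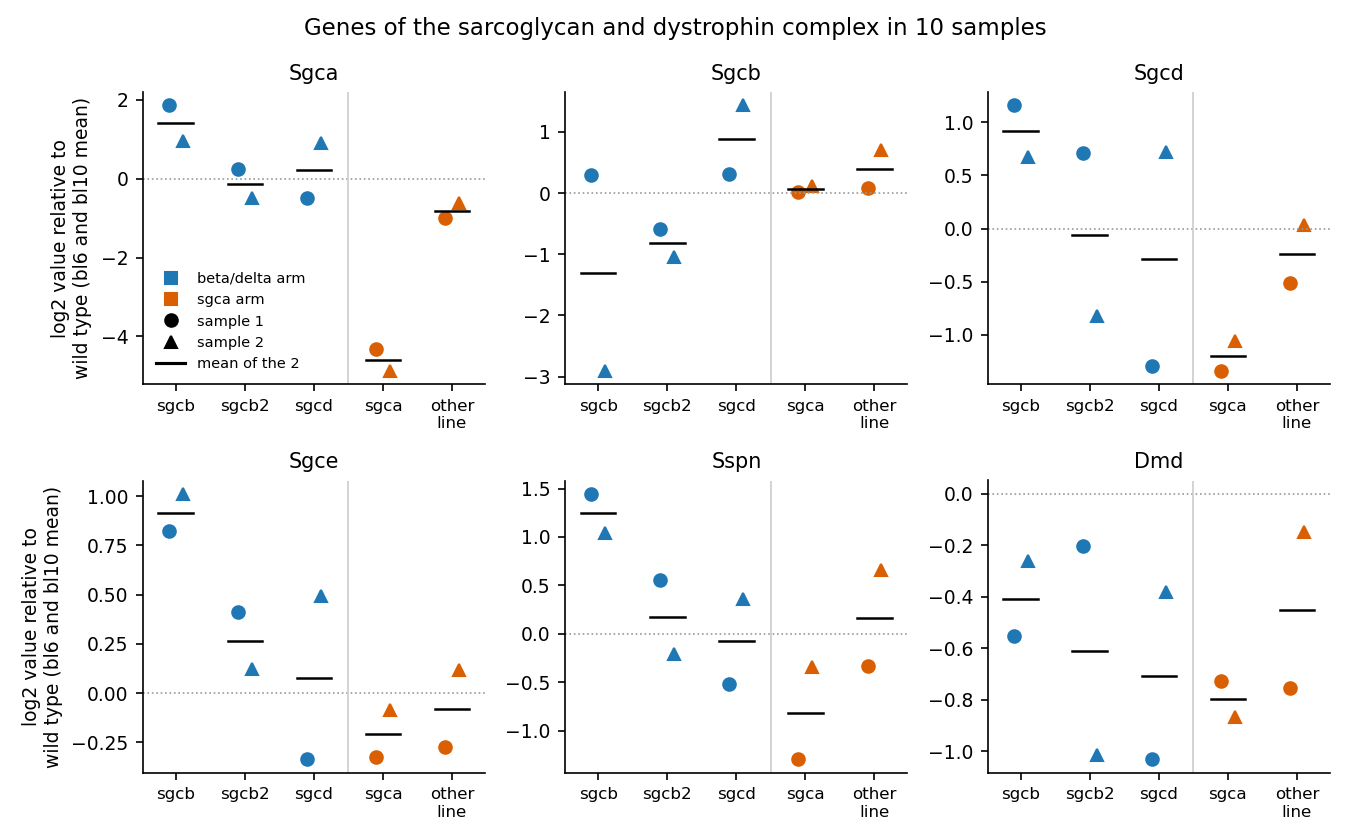
Values of 6 genes of the complex in the 10 samples, as log2 differences from the mean of bl6 and bl10 on the y axis, with the lines on the x axis, circles and triangles for samples 1 and 2 and a black bar for their mean. Sgca is far lower in both sgca samples (-4.31 and -4.88) than in the other 8. The fitted value of Sgcb is low in 1 of the 2 sgcb samples (-2.91), and Dmd overlaps between the arms.

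Smooth muscle genes, the group for which the arms were drawn up, lay close to the median of all genes. Of 17 measured members 0 passed the test, 10 were above 0 and the median difference was 0.13, beside 0.03 for all genes. At an unadjusted p under 0.05 there was 1 member, Tpm1, a tropomyosin of striated and smooth muscle that is also on the fast fibre list, at 1.11 ± 0.39. Tagln, the smooth muscle protein transgelin, differed by 0.31 ± 0.27 (95% interval -0.25 to 0.87), and ranged from -0.32 to 0.77 in the beta/delta arm and from -0.73 to 0.59 in the sgca arm. Cnn1, the smooth muscle calponin, differed by -0.12 ± 0.28 (95% interval -0.70 to 0.46), and Mylk, the kinase that activates smooth muscle myosin, by -0.32 ± 0.33. The median of the list in single samples ran from -0.51 in sgcd sample 1 to 0.48 in sgcb sample 1, and from -0.30 to 0.04 in the sgca arm, so that the arms overlapped. It turned to -0.01 with sgca alone as the comparator.

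Genes that set vessel tone also lay close to it. Of 28 measured members of the vasomotor list 0 passed and 21 were above 0, with a median of 0.13. Nppb, the gene of a natriuretic peptide that relaxes vessels, was the only member at an unadjusted p under 0.05, at 0.61 ± 0.29. It was at -1.55 and -0.90 in the other samples of the sgca arm and between -0.39 and 0.49 in the remaining 8 samples of both arms. Prkg1, the cyclic GMP-dependent kinase of smooth muscle, differed by 0.44 ± 0.28. Genes of the response to hypoxia had 16 of 22 members above 0 and a median of 0.25, with Bnip3, a mitochondrial protein gene induced when oxygen is low, at 0.71 ± 0.32.

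Endothelial and vessel growth genes lay higher in the beta/delta arm, again without passing the test. Of 22 endothelial genes 19 were above 0, beside 54.2% of all genes. The median was 0.31 and 4 had an unadjusted p under 0.05, beside 2.14% of all genes higher. These were Cldn5, a tight junction protein of endothelium (0.96 ± 0.40), Kdr, a receptor of vascular endothelial growth factor (0.63 ± 0.27), Tek, the angiopoietin receptor (0.63 ± 0.29) and the transcription factor gene Sox18 (0.69 ± 0.33). Against the sgca arm the endothelial median was 0.63 in sgcb and 0.23 in sgcd but 0.07 in sgcb2, where 12 of 22 members were above 0. In single samples it was highest in sgcb sample 1 (0.82) and sgcd sample 2 (0.74). It lay between -0.22 and 0.36 in the other beta/delta samples, against -0.23 to 0.06 in the sgca arm. Of 28 vessel growth genes 19 were above 0, with a median of 0.22. The median of this list was at 0.54 and 0.33 in sgcb, 0.14 and 0.14 in sgcb2, and 0.14 and 0.27 in sgcd, and at 0.03, -0.11, 0.00 and 0.01 in the sgca arm. Its arms did not overlap, as was also so for the list of growth hormone and insulin-like growth factor genes, but for none of the other 37 of the 39 lists. This separation depended on the offsets of the samples: relative to the median of all genes in each sample, an alternative chosen after seeing the data, 0 of the 39 lists were without overlap. The vessel growth list was then at 0.08 in both sgcb2 sample 1 and sample 1 of the other line. Single genes were no clearer: Kdr overlapped, with -0.56 to 0.77 in the beta/delta arm and -1.01 to 0.05 in the sgca arm. Kdr differed from the sgca arm by 1.34 in sgcb but by 0.34 in sgcb2 and 0.20 in sgcd.

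**Figure D3:**
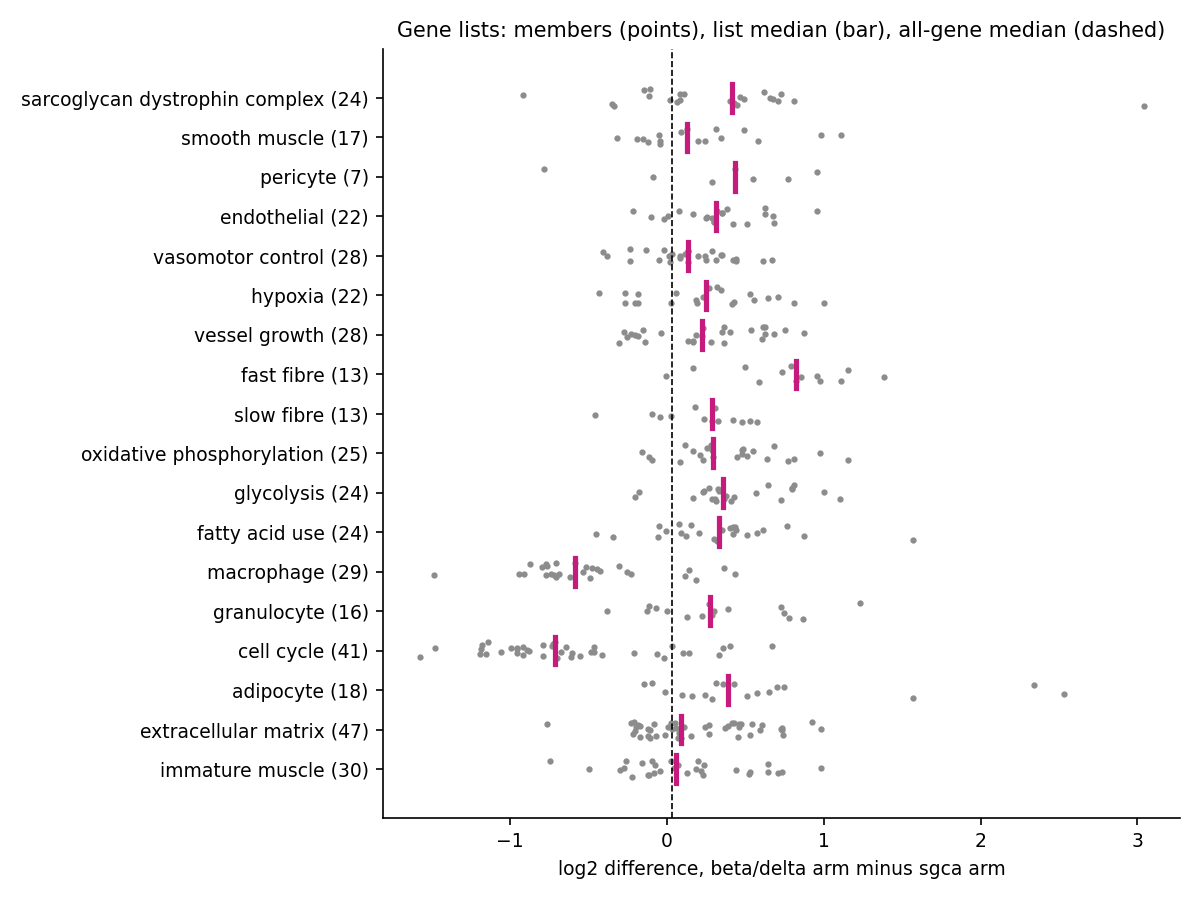
Log2 differences between the beta/delta and sgca arms for the members of 18 gene lists (grey points, number measured in brackets), with the median of each list as a bar and the median of all 6540 genes (0.03) as a dashed line. Cell cycle (-0.71) and macrophage genes (-0.59) lie lowest and fast fibre genes (0.83) highest, while smooth muscle genes (0.13) lie near the line.

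Genes of fast muscle fibres had the highest median of the 39 lists under the direction used here, and would have the lowest (-0.83) with the ratios turned. Of 13 measured members 0 passed, 12 were above 0 and the median was 0.83. At an unadjusted p under 0.05 there were 6, all higher, beside 2.14% of all genes. Tnnt3, the troponin T of fast fibres, had the smallest p of all genes after Sgca. It was at 0.91 and 1.03 in sgcb, 0.08 and 0.13 in sgcb2, and -0.08 and -0.12 in sgcd, against -1.10 and -0.58 in sgca and -0.83 and -0.01 in the other samples of that arm. The arms overlapped by the last of these values, and the difference was 0.98 ± 0.25 (limma unadjusted p = 0.000988, adjusted p = 0.977).

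Atp2a1, the calcium pump of the fast fibre reticulum, differed by 1.16 ± 0.34 and Myoz1, a protein gene of the Z-disc of fast fibres, by 0.85 ± 0.27. Pvalb, the calcium buffer parvalbumin, was at 0.96 ± 0.35 and Tnni2, the fast troponin I, at 0.73 ± 0.31. The lines of the beta/delta arm were uneven in this group, with a list median of 1.52 in sgcb, 0.65 in sgcb2 and 0.20 in sgcd against the sgca arm. Between sgcb and the sgca arm, 5 of 6540 genes were called higher in sgcb (0.0765%), 2 of them among the 13 members. These were Atp2a1, higher by 2.51 ± 0.45, and Myoz1, by 2.14 ± 0.36 (limma adjusted p = 0.0274 and 0.0190). Against wild type they were at 1.59 and 1.35 in sgcb, and at -1.33 and -1.26 in sgca. Neither passed between sgcb2 and sgcb (limma adjusted p = 0.996 and 0.323) or between sgcd and the mean of sgcb and sgcb2 (0.176 and 0.288). Of the 26 fits that left out a sample, Atp2a1 was called in 11 and Myoz1 in 14. Both calls were lost without either bl10, mdx3cv, sgcb2 or sspn sample, dysf sample 1, sgcb sample 2 or sample 1 of the other line. That of Atp2a1 was also lost without bl6 sample 2, sgca sample 1, sgcb sample 1 or sgcd sample 2, and that of Myoz1 without hDMD sample 1. The median of the list was 1.27 and 0.74 in the sgcb samples, -0.93 in sgcd sample 1 and within 0.1 of 0 in the remaining 3 beta/delta samples. It was -1.26 and -0.98 in sgca and -0.62 and -0.08 in the other samples of that arm, so the arms overlapped. Without the line sgcb the median of the list was 0.48, and without single samples it ranged from 0.58 to 1.22.

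Metabolic genes of the fibre lay higher as well, mainly in sgcb. The median was 0.36 for glycolysis (22 of 24 above 0), 0.29 for oxidative phosphorylation (22 of 25) and 0.34 for fatty acid use (19 of 24), with 0 members called in each. Against the sgca arm the medians, in the same order, were 0.81, 0.99 and 0.74 in sgcb. They were 0.215, 0.16 and 0.16 in sgcb2, and 0.11, 0.04 and 0.08 in sgcd. In single samples the arms overlapped for each of these lists. Ldha, which makes lactate, differed by 1.00 ± 0.49, at 2.12 in sgcb, 0.39 in sgcb2 and 0.49 in sgcd. Genes of slow fibres had a median of 0.29 and 0 members at an unadjusted p under 0.05; this median was -0.07 without sgcb2 sample 2, -0.14 with sgca alone as the comparator and -0.08 without the 3 samples in which Xist was high. Beside these groups stand the macrophage genes, with 0 of 29 members at an unadjusted p under 0.05 between the arms. Their median ranged from 0.31 to 2.50 in the beta/delta arm and from 0.59 to 3.88 in the sgca arm, and their part in the result was not tested.

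Macrophage genes were lower in the beta/delta arm on average but did not separate the arms. Of 29 measured members 0 passed, 5 were above 0 and the median was -0.59. Gpnmb, a glycoprotein gene of phagocytes, had the smallest p of the list, at -1.48 ± 0.87 (95% interval -3.30 to 0.34). The median of the list in single samples was 3.88 and 1.56 in sgca, and 3.11 and 0.59 in the other samples of that arm. In the beta/delta arm it was 0.31 and 1.83 in sgcb, 0.72 and 1.82 in sgcb2, and 2.50 and 1.90 in sgcd. All 10 samples were thus above wild type, and the highest and the second highest were both in the sgca arm, each beside a much lower sample of the same line. Without sgca sample 1 the list's difference between the arms was -0.01, and without sample 1 of the other line it turned to 0.13. Against the sgca arm the list was at -1.44 in sgcb, -0.72 in sgcb2 and 0.47 in sgcd, so that 1 line went the other way, and it was -0.05 when sgcb was left out of the contrast.

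Cell cycle genes gave the lowest median of the 39 lists under the direction used here, and would give the highest (0.71) with the ratios turned. Of 41 measured members 0 passed, 7 were above 0 and the median was -0.71; 10 had an unadjusted p under 0.05, all lower, beside 1.3% of all genes. Kif20a, a kinesin of cell division, was at 4.42 and 1.32 in sgca and 2.49 and 1.16 in the other samples of that arm, against -0.32 and 0.29 in sgcb, -0.49 and 1.48 in sgcb2, and 1.86 and -0.21 in sgcd. The arms overlapped, and the difference was -1.58 ± 0.50 (limma unadjusted p = 0.0050, adjusted p = 0.977). Cdk1, the kinase that drives mitosis, differed by -1.14 ± 0.47 and Ccna2, its cyclin A partner, by -1.48 ± 0.68. The DNA replication genes Mcm2 (-0.96), Mcm5 (-1.18), Prim1 (-1.15) and Rrm2 (-1.19) and the mitotic genes Plk1 (-0.61), Cdc25c (-0.89) and Pttg1 (-1.19) made up the rest of the 10. Pttg1 was uneven, at -2.16 in sgcb and -2.56 in sgcd but 1.14 in sgcb2.

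Cell cycle genes were highest in the same samples as macrophage genes. The list median was 2.00 in sgca sample 1 and 1.73 in sample 1 of the other line, but 0.43 and 0.22 in the second samples of these lines. It ran from 0.04 to 0.85 in the beta/delta arm (median 0.24), so the arms overlapped. The difference of the list was -0.29 without sgca sample 1, -0.16 without sample 1 of the other line and -1.30 without sgca sample 2, and it stayed below 0 in each of the 26 left-out fits. When sgca sample 2 was left out, Kif20a (-2.64), Rad54l (-2.35) and Ttk (-1.79) passed the test, with limma adjusted p = 0.0407, 0.0308 and 0.0407. Ttk, a kinase of the mitotic checkpoint, was otherwise at -1.12 ± 0.38, and Rad54l, a gene of DNA break repair, at -1.30 ± 0.41. Tmod1, which caps actin filaments in the sarcomere and was at 1.16 ± 0.37 with all samples, passed there as well at 1.98 (limma adjusted p = 0.0407). The part of the macrophage level in these differences was not tested.

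**Figure D4:**
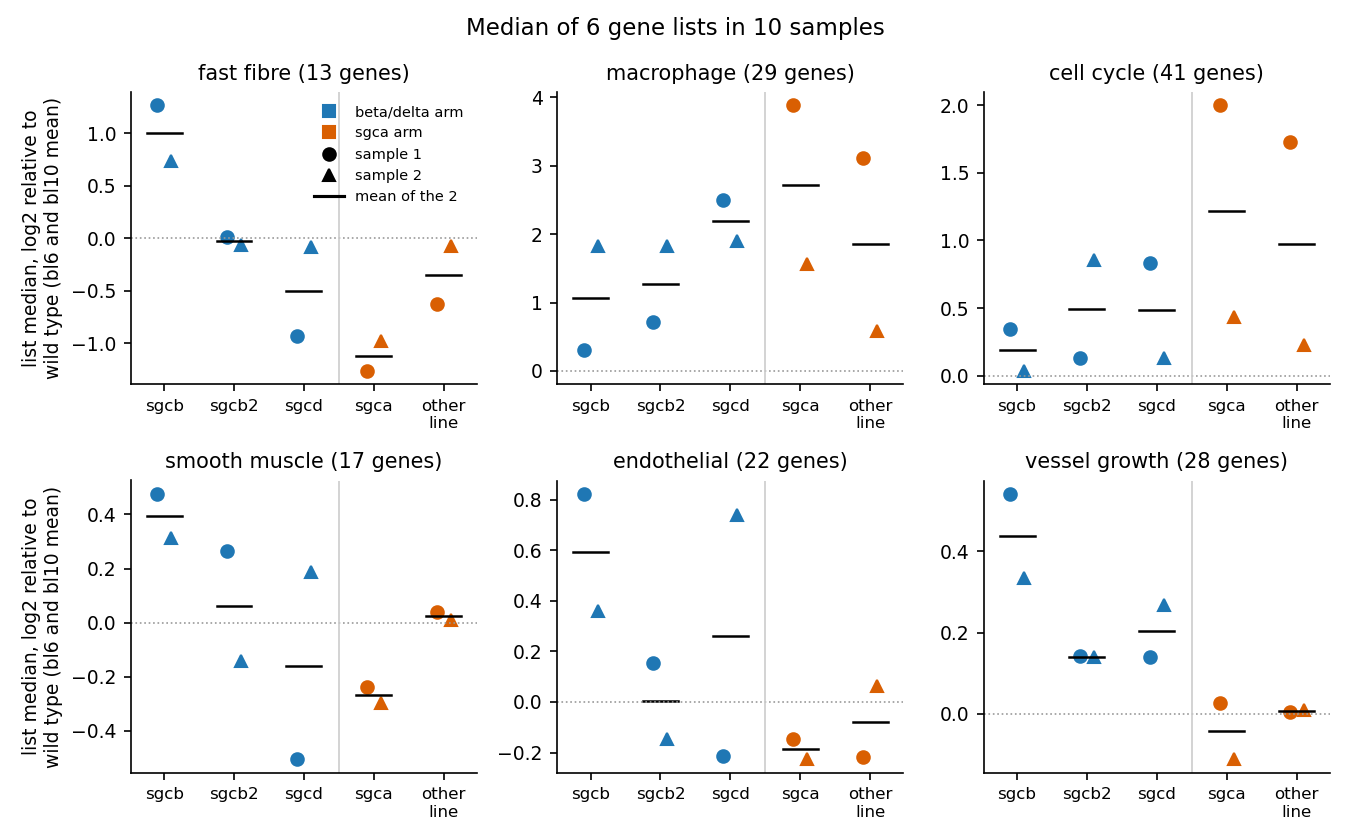
Median of 6 gene lists in the 10 samples, as log2 differences from wild type on the y axis, with the lines on the x axis and the black bar at the mean of 2 samples. Macrophage and cell cycle medians are highest in sample 1 of both lines of the sgca arm (3.88 and 3.11; 2.00 and 1.73), fast fibre medians are highest in sgcb (1.27 and 0.74), and of these 6 lists only vessel growth shows no overlap between the arms, which is lost relative to each sample's median of all genes.

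The named genes outside these lists are given as values only, since none had an adjusted p below 0.977. On the higher side, Pdlim5, a Z-disc protein gene, was at 2.44 and 2.80 in sgcb, 1.34 and 0.73 in sgcb2, and 0.44 and 1.85 in sgcd, against -0.98 and 0.21 in sgca and -0.06 and 0.01 in the other samples of that arm. Its arms did not overlap and the difference was 1.63 ± 0.55. Gpam, which starts triglyceride synthesis, differed by 1.58 ± 0.55, Akap12, a scaffold for protein kinase A, by 0.98 ± 0.34 and the repressor gene Zbtb20 by 0.88 ± 0.27. On the lower side, Slc7a8, an amino acid transporter gene, ranged from -0.21 to 0.42 in the beta/delta arm (median 0.01) and was at 0.61 and 0.75 in sgca and at 3.32 and 0.88 in the other samples of that arm. There was no overlap, and the difference was -1.44 ± 0.39. Chtop, an mRNA export gene, was at -1.26 ± 0.34 and Slc15a3, a peptide transporter gene of lysosomes, at -1.31 ± 0.44. Shcbp1 (-1.07), the DNA repair gene Fanca (-1.04), the lysophosphatidic acid receptor gene Lpar2 (-0.80) and Dio1, which activates thyroid hormone (-0.85), completed this side.

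Sample values of the arms did not overlap for 26 of 6540 genes (0.398%), 8 with the beta/delta arm higher (0.122%) and 18 with it lower (0.275%). Besides Sgca and Pdlim5, those on the higher side were Dcn, Hbegf, Rab10, Zfp618, Fbln5 and Nck1, named after their values were seen. Dcn, the matrix proteoglycan decorin, was at 2.46 and 1.44 in sgcb, 1.77 and 1.15 in sgcb2, and 1.03 and 2.09 in sgcd, against 0.72, 0.67, 0.48 and 0.06 in the sgca arm. Its difference of 0.99 ± 0.39 was nearly even across the lines, at 1.19, 0.88 and 0.89. Hbegf, the gene of a growth factor of the epidermal growth factor family, differed by 0.69 ± 0.26.

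**Figure D5:**
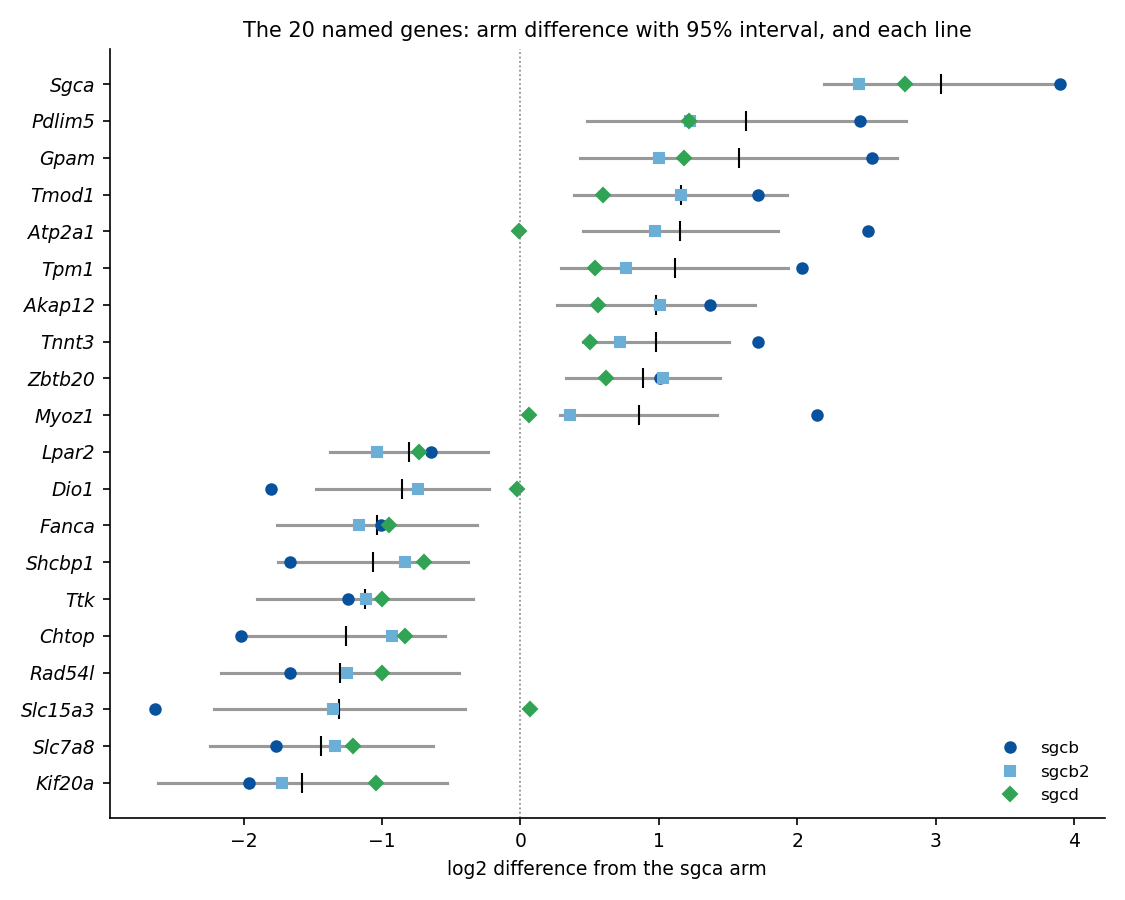
The 20 named genes, ordered by their log2 difference between the beta/delta and sgca arms (x axis), with that difference as a tick and its 95% interval as a bar, and the difference of each line from the sgca arm as a symbol. The symbol of sgcb lies farthest from 0 for 17 of the 20 genes, as for Myoz1 (2.14, against 0.36 in sgcb2 and 0.06 in sgcd). The genes were picked by p in a contrast that includes sgcb, so this count is no separate result. Over all genes sgcb also had the widest spread (SD 0.66, against 0.37 in sgcb2 and 0.31 in sgcd).

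The difference between the arms was not shared evenly by the lines. Against the sgca arm, 5 genes passed in sgcb, all of them higher (0.0765%, against 0% lower). At an unadjusted p under 0.05 it had 925 (14.1%; 10.2% higher and 3.9% lower). In sgcb2 there were 0 called genes and 63 at that level (0.963%; 0.443% higher and 0.52% lower), and in sgcd 0 called genes and 40 (0.612%; 0.382% higher and 0.229% lower). In sgcb2 and sgcd this was less than the share of 0.05 that would be reached if no gene differed. The smallest limma adjusted p was 0.322 in sgcb2 and 0.165 in sgcd. The spread of the differences over all genes was 0.66 (SD) in sgcb, 0.37 in sgcb2 and 0.31 in sgcd, with like median SE of 0.41, 0.40 and 0.39. The sign was the same in all 3 lines for 3008 genes (46%), a share that rests on the common sgca arm. Called higher in sgcb than in the sgca arm were Sgca and the fast fibre genes Atp2a1 and Myoz1. In sgcb against wild type these did not pass (limma adjusted p = 0.411, 0.272 and 0.249). The granulocyte genes S100a8 (3.60 ± 0.67) and Ngp (3.16 ± 0.54), which passed there as well (limma adjusted p = 0.00166 and 0.000445), completed the 5 genes. Their count was 0 without sgcb sample 2 or sample 1 of the other line, and 1 without either bl10 sample, either sgcb2 sample, dysf sample 1, mdx3cv sample 2 or sspn sample 1. It was 2 without mdx3cv sample 1, sgcb sample 1 or sspn sample 2, and 3 without hDMD sample 1. It rose to 9 without mdx sample 1, 14 without sample 2 of the other line, 40 without sgcd sample 1 and 160 without sgca sample 2. In sgcb2 the count was 1 without bl6 sample 1, hDMD sample 2, mdx sample 1 or sample 2 of the other line, and in sgcd it was 1 without dysf sample 2, either hDMD sample or mdx3cv sample 1.

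Ngp was the granulocyte gene that passed between sgcb2 and sgcb, while sgcb was not tested against sgcd alone. S100a8, a calcium-binding protein gene of neutrophils, was at 5.33 and 4.35 in sgcb, 1.69 and 0.27 in sgcb2, and 0.92 and 2.68 in sgcd, with 3.93 and 3.17 in sgca and -2.20 and -0.22 in the other samples of that arm. Ngp, a granule protein gene of developing neutrophils, was at 4.81 and 4.41 in sgcb against 0.74 and 0.26 in sgcb2, 0.48 and 2.15 in sgcd and 3.11 and 3.01 in sgca. High values thus stood in both sgcb and sgca, 1 line of each arm, and against wild type in dysf and sspn as well. Between sgcb2 and sgcb, Ngp fell by 4.05 ± 0.64 on the log2 scale (16.6-fold lower in sgcb2; limma adjusted p = 0.0228), the only called gene (0.0153% of genes lower, 0% higher), with 281 genes (4.3%) at an unadjusted p under 0.05, 0.872% higher and 3.43% lower. S100a8 had a limma adjusted p of 0.0777 there. Both sgcb2 samples and neither sgcb sample were high in Xist, as given below. Line and a possible difference in sex therefore cannot be told apart between sgcb2 and sgcb. Between sgcd and the mean of sgcb and sgcb2, Ngp had a limma adjusted p of 0.549. Of the 16 granulocyte genes, 8 were lower in sgcb2 than in sgcb at an unadjusted p under 0.05, with a median of -0.98, beside 224 of all genes and a median of -0.08. The count of called genes was 0 without either bl10 sample, either sgcb2 sample, dysf sample 1, mdx3cv sample 2, sgcb sample 1, sgcd sample 2 or sspn sample 1. It was 2 without sample 2 of the other line, 3 without hDMD sample 2, sgcb sample 2 or sjl sample 2, 5 without sgca sample 1, 6 without hDMD sample 1 or mdx sample 2, and 7 without bl6 sample 1 or mdx sample 1. Ibsp, a bone matrix gene, was at 4.23 and 1.84 in sgcb, 2.04 and 2.69 in sgca and 1.02 and -0.22 in sgcb2, and the part of bone or marrow in the samples was not tested.

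A pair of brown fat genes, Ucp1 and Cidea, had large differences between the arms that did not pass the test. Ucp1, which uncouples respiration to make heat, was at 5.67 and 1.37 in sgcb, 0.42 and 2.43 in sgcd and -1.62 and -2.13 in sgcb2, against -3.37, -1.08, -1.69 and -2.10 in the sgca arm. Cidea, a lipid droplet gene of brown fat, was at 3.54 and 3.63 in sgcb, 0.38 and 1.61 in sgcd and -2.01 and -2.78 in sgcb2, against -3.69, 0.14, -2.14 and -1.82. Their differences between the arms were 2.53 ± 0.95 and 2.34 ± 0.86 (limma unadjusted p = 0.0147 and 0.0133, adjusted p = 0.977), with sgcb and sgcd above 0 and the sgcb2 samples within the range of the sgca arm. Of 18 fat cell genes 15 were above 0, with a median of 0.39 and 0 called. Adipoq, the adiponectin gene of fat cells, was at 0.43 ± 0.34. The part of fat tissue in the samples was not tested.

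Mmp12, the macrophage elastase, was the only gene that passed between sgcd and the mean of sgcb and sgcb2 (0.0153% of genes called higher, 0% lower), with 521 genes (7.97%) at an unadjusted p under 0.05, 3.59% higher and 4.37% lower. It was at 2.12 and 6.08 in sgcd, 0.15 and 0.17 in sgcb and 0.47 and 1.52 in sgcb2, and both sgcd samples were above the other 4. It rose by 4.22 ± 0.70 in sgcd (18.7-fold; limma adjusted p = 0.0373), but with a replicate block the call was lost at 4.22 (limma adjusted p = 0.0508). In the sgca arm it was at 3.58, 0.86, 3.48 and -0.03. Of 29 macrophage genes, 19 were higher in sgcd than in these lines at an unadjusted p under 0.05, beside 235 of all genes, with a list median of 1.85 and 0 called. The count of called genes was 0 without bl10 sample 1, bl6 sample 2, either dysf sample, mdx3cv sample 2, sgca sample 1, either sgcb sample, sgcb2 sample 1, sgcd sample 2 or either sspn sample. It was 2 without bl10 sample 2, sgca sample 2 or sjl sample 1, 3 without sgcd sample 1 or either sample of the other line, and 4 without either hDMD sample, either mdx sample or sjl sample 2.

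Xist, the RNA that silences an X chromosome in female cells, stood out in 3 of the 10 samples. It was at 5.12 and 3.62 in sgcb2 and at 4.69 in 1 sample of the sgca arm, and between -1.34 and -0.16 in the other 7. The Y-linked genes Uty, Kdm5d and Eif2s3y differed between the arms by -0.79 ± 0.45, -0.34 ± 0.30 and -0.13 ± 0.25. Between the arms Xist differed by 0.46 ± 0.61. As both sgcb2 samples were high and both sgcb samples were not, sgcb2 against sgcb may also be a difference in sex. The same holds where sgcb2 stood apart from sgcb, as for Ngp, Ucp1 and Cidea, and was not tested. Without the 3 samples high in Xist, a choice made after seeing the data, 1 gene passed between the arms and 203 had an unadjusted p under 0.05.

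Against wild type, both arms showed more called genes than against each other. The beta/delta arm had 103 genes higher (1.57%) and 17 lower (0.26%), and the sgca arm 443 higher (6.77%) and 133 lower (2.03%). The genes at an unadjusted p under 0.05 numbered 975 in the beta/delta arm (14.9%; 12.2% higher, 2.74% lower) and 1424 in the sgca arm (21.8%; 15% higher, 6.82% lower). Both comparisons share the wild type samples, so their values are given side by side only. A gene called in only 1 arm was not thereby different between the arms: of 468 genes called in the sgca arm alone, 1 was called in the difference, Sgca, and of 12 called in the beta/delta arm alone, 0 were. With each array centred on its median, the split was 57 higher and 23 lower in the beta/delta arm (71.2% higher, against 85.8%) and 399 and 168 in the sgca arm (70.4%, against 76.9%). The macrophage list had a median of 1.74 in the beta/delta arm (8 of 29 rose) and 2.34 in the sgca arm (18 rose and 1, Cyba, fell). Extracellular matrix genes had a median of 1.19 (10 of 47 rose) and 0.66 (13 rose), and fast fibre genes 0.10 and -0.70 with 0 of 13 called in either arm.

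These counts against wild type moved with single samples. The 120 genes of the beta/delta arm became 1 without sgcb2 sample 2 and 6 without sgcb2 sample 1, 7 and 12 without bl10 samples 1 and 2, 14 and 37 with sgcd sample 1 or 2 left out, and 19 without bl6 sample 1. They became 26 and 32 without mdx samples 1 and 2, 33 and 52 without sspn samples 1 and 2, 36 without sgca sample 2, 58 and 42 without mdx3cv samples 1 and 2, 59 without dysf sample 2, 71 without sgcb sample 2 and 230 without sjl sample 1. The 576 genes of the sgca arm became 5 without sgca sample 1 and 904 without sgca sample 2, 149 without sample 1 of the other line, and 353 and 159 without bl10 samples 1 and 2. They became 262 and 290 without sspn samples 1 and 2, 376 and 297 without mdx samples 1 and 2, 305 and 314 without bl6 samples 1 and 2, 372 and 355 without mdx3cv samples 1 and 2, 373 and 359 with sgcb2 sample 1 or 2 left out, and 368 without sgcd sample 2.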

How the data were processed

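Total RNA of 26 samples (13 groups of 2) was hybridised to 26 arrays with 2 channels. Each array was deposited by the authors as 1 natural log (ln) value per row of spots, with no unit, dye or normalization stated in the sources used here. The unit was read from the spacing of the values: of 6236 triples of steps on 24 arrays, 6228 (99.9%) lay within 1% of a natural log with a finite largest step, a generalized log that understates dim spots. The other 2 arrays were taken to share it. As design choices had assumed plain ratios, the log scale was used instead. Arrays carry no counts, and their number limits the precision.

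Values were divided by 0.693 to give log2. Of 16416 rows, 13662 had 1 gene, 14 several and 2740 none, and rows of a gene were averaged. A generalized least squares fit with terms for group and dye, in which the 2 arrays of a sample shared a variance component (ratio 0.207), left 13 residual degrees of freedom, and was moderated with limma 3.58.1 in R 4.3.3. Adjustment was by Benjamini-Hochberg over 6540 genes, with a threshold of 0.05. Values of single samples came from a fit with a term for each of the 10 samples (8 residual degrees of freedom). The fit was tested on simulated data.

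Members and gene lists were chosen with earlier results of these data known. Named genes were those past the threshold, filled up to 10 a direction by smallest p (1 clone symbol was passed over), and up to 3 of each list by smallest p. Members of the complex, smooth muscle, vasomotor and sex-linked lists could also be named. Their values were known when Sox18, the further cell cycle genes, Ibsp, Ldha, Adipoq, Cyba, the genes without overlap and the genes called within lines were picked. The further line of the sgca arm is not reported here by itself. Alternatives were centring, scaling, the dye term, least squares, array weights, the replicate block, rows, arrays and lines left out, and each sample left out.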

Additional observations from a re-analysis of the deposited data

Results flagged for a closer look

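Of 46 groups of sample values examined (23 genes in 2 arms), 3 had a sample far from the others, where chance gives about 1 in 20. Slc7a8 was at 3.323 in 1 sample of the other line of the sgca arm, with the next highest of the 4 at 0.875. Sgcb was at 0.696 in 1 sample of that arm, with the next at 0.113. Xist was at 4.693 in 1 sample of that arm, with the next at -0.16.

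Lines of the beta/delta arm differed from each other in 2 genes by limma's test of the difference itself. Ngp was at -4.053 in sgcb2 against sgcb, and Mmp12 at 4.221 in sgcd against the mean of sgcb and sgcb2. Both sgcb2 samples, and neither sgcb sample, were also high in Xist. The call of Mmp12 was lost with a replicate block (limma adjusted p = 0.0508). Of the 2740 rows with no gene, 0 passed between the arms; 56 had an unadjusted p under 0.05 (2.04%), and the smallest limma adjusted p was 0.606.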

How the results depend on the processing

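The count of genes called between the arms was 1. It was 0 with no dye term, 10 with array weights (whose estimation did not fully converge), 2 on only the 16 arrays that hold a sample of the arms and 0 without the line sgcb; the cause was not tested. With arrays centred on their medians, 3 genes passed between sgcd and the mean of sgcb and sgcb2. Relative to the median of all genes in each sample, 0 lists were without overlap, against 2. A check of whether sample numbers pair the samples could not decide it. The same-number correlations of 10 pairs of lines ran from -0.796 to 0.619, with 3 over 0.1. They came from a fit with a term for every sample and no residual degrees of freedom, in which array error passes between neighbours in the loop. With a replicate block the counts were 1 between the arms, 126 and 613 for the beta/delta and sgca arms against wild type, 8 for sgcb against the sgca arm, 2 for sgcb2 against sgcb and 0 for sgcd against sgcb and sgcb2.

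Leaving out each of the 26 samples gave 0 to 8 genes between the arms, 1 to 230 and 5 to 904 for the beta/delta and sgca arms against wild type, 0 to 160 for sgcb, 0 to 1 for sgcb2 and 0 to 1 for sgcd against the sgca arm, 0 to 7 for sgcb2 against sgcb and 0 to 4 for sgcd against sgcb and sgcb2. Sgca stayed between 2.61 and 4.85 in 40 alternatives, with a limma adjusted p under 0.05 in 36 and up to 0.212 in the others. Of 795 values of named genes under alternatives, 780 kept their direction and side of the threshold, 4 lost the call, 11 gained it and 0 reversed.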
